A study of Solanum lycopersicum with 12 samples.

Results

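The hybrid QxG was compared with its parent line Q by RNA sequencing of red ripe tomato fruit. The members of the comparison are the 3 QxG libraries and the 3 Q libraries, 6 of the 12 libraries in the study, chosen by the genotype in their labels, and all 17887 genes of the count table were tested. Q is Querubín FCA, a recombinant inbred line with both the cultivated tomato Solanum lycopersicum and the wild Solanum pimpinellifolium in its ancestry. QxG is the hybrid of Q with G, which is Gema FCA, a sister line from the same kind of cross, in the order of parents written Q x G, and GxQ is the reciprocal hybrid. Levels in G and GxQ, 3 libraries each, are given beside those of the pair. The labels name no transgene and no treatment, and plants were grown in a greenhouse. The tissue was mesocarp, the fleshy layer of the fruit wall, and each library came from a separate fruit described as a biological replicate. The labels do not say whether the fruits came from different plants, so p-values measure the spread between fruits. In the fit of all 12 libraries that spread was pooled over the genotypes, G and GxQ included. Effects of harvest and of genotype cannot be told apart.

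In a ripening tomato, ethylene and a set of transcription factors switch on the genes that make lycopene, loosen the wall and form aroma compounds. Vacuolar invertase splits sucrose stored in the cell into glucose and fructose, which together with citrate, malate and glutamate set the taste of the ripe fruit. A hybrid carries a set of chromosomes from each line, so a transcript that differs between the lines can stand at either level in the hybrid or between them.

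Total counts were 19026890 to 20471869 in Q and 17928230 to 23862296 in QxG, and 2 libraries stood apart by the measures given next. The third Q library correlated across genes with the first and second Q libraries at 0.953 and 0.957, and with the second and the third QxG library at 0.957 and 0.961 (Pearson's r of log2 CPM, CPM being TMM-scaled counts at a common library size). The first and second Q libraries correlated with each other at 0.987. In the first QxG library 1436 genes were at 0, where the remaining 5 libraries of the comparison had 31 to 252 such genes, and 77 genes were at 1 to 4 counts, where the other QxG libraries had 730 and 724. A 0 in the first QxG library was therefore not read as absence. Results are given with and without these 2 libraries, called the doubtful libraries. By other measures the first and the second Q library stood apart instead. Their TMM factors were 1.24 and 1.2, and their 10 most abundant genes held 6.06% and 6.55% of counts. The third Q library had 0.956 and 11.4%, within the 0.884 to 1.07 and 8.38% to 13.4% of every other library of the study. Which Q libraries are typical of the line was not tested. Ripe-fruit genes such as PSY1 and E8 were abundant in every library. Markers of other tissues were scarce: of 5 listed genes of epidermis and cuticle 2 were measured, and their summed level was 13.4 to 22.1 CPM in Q and 5.02 to 9.73 CPM in QxG. The 1 listed seed gene was not among the genes of the table. Levels are bulk measurements, in which fewer cells of a type and less RNA per cell cannot be told apart.

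In the fit of all libraries fewer genes were called higher than lower in the hybrid, and the called falls were steeper. A gene was called when its edgeR quasi-likelihood test had a Benjamini-Hochberg adjusted p under 0.05. This called 1709 of 17887 genes (9.55%), 651 higher in QxG (3.64%) and 1058 lower (5.91%). Called higher genes had a median absolute log2 fold change of 0.94, with 295 of them over 2-fold and 41 over 8-fold. The median was 1.65 among called lower genes, with 824 over 2-fold and 231 over 8-fold. Of the lower genes 158 had 0 counts in the first QxG library, against 1 of the higher genes. With all genes at 0 in that library left out 653 were higher and 988 lower. The sizes of the falls were not computed again without these genes, so part of their steepness may rest on such zeros. The 3 QxG libraries lay above all 3 Q libraries in 640 of the called higher genes and below them in 1009 of the called lower genes. Over all 17887 genes the same held for 11.6% and 18.4%. Called genes lay closest to QxG in the third Q library: it was nearest to the QxG mean in 1207 of the 1709 (70.6%), against 8578 of all 17887 genes (48.0%).

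The number of calls depended on the libraries used. Leaving out the first or the second Q library lowered it to 310 and 387, and leaving out the second or the third QxG library to 985 and 759. It was 1573 without the first QxG library and 2606 without the third Q library. With both the first QxG and the third Q library left out it rose to 3739, of which 1756 were higher and 1983 lower, and 1475 of the 1709 calls were among them. The third Q library was set apart because it lay near QxG, so leaving it out tends to widen the difference. Calls kept or gained without it, here and below, are therefore no independent support. In none of the 14 alternatives computed did any of the 1709 genes change sign where it was tested.

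**Figure D1:**
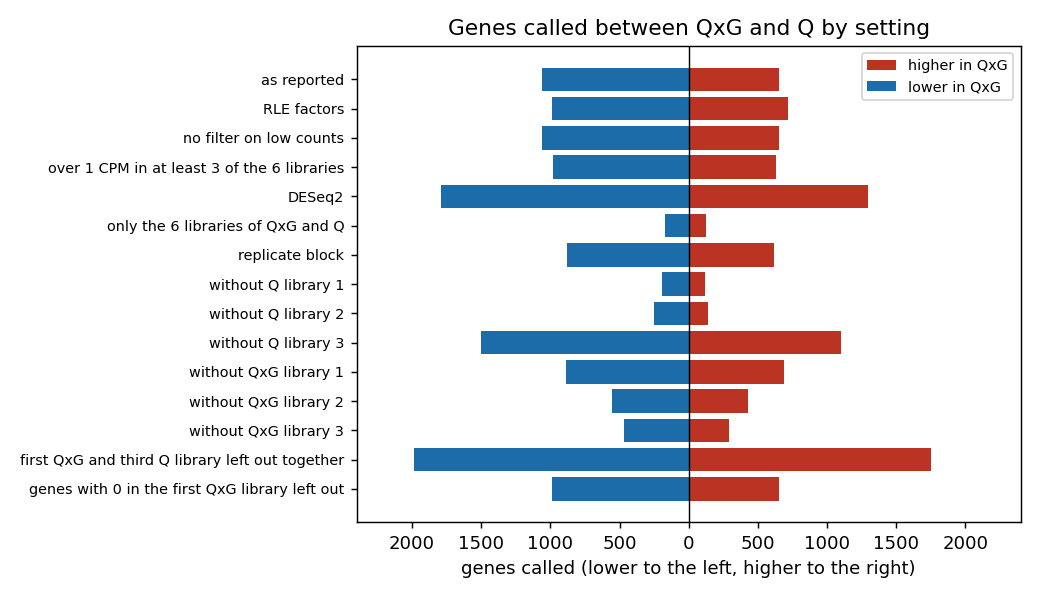
Genes called between QxG and Q under each alternative, lower in QxG to the left in blue and higher to the right in red; the x axis is the number of genes and each pair of bars is 1 way of fitting the data. The bars are shortest with only the 6 libraries of the pair (297 calls) and without the first Q library (310), and longest without the first QxG and the third Q library (3739).

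Known genes of fruit quality were grouped in 20 lists of 222 genes, of which 182 were measured. Of these, 14 were called higher and 21 lower in QxG, and 147 were not called. The background shares over all genes are the 3.64% and 5.91% given above, and the lists were drawn up with results of these data known, so their share is a description. The libraries of QxG and Q overlapped in 3 of the 35 called genes, GAD2, LOXD and Solyc05g005560. Among all called genes 640 of 651 higher and 1009 of 1058 lower genes did not overlap. A lack of overlap is thus the usual state of a called gene, here and below, and adds little to a call. Leaving out the first Q library ended 32 of the 35 calls and leaving out the second ended 30, against 4 for the third Q library and 15, 21 and 22 for the first, the second and the third QxG library. TIV1, CCD1A and LIP8 were called whichever of the 6 libraries was left out. With both doubtful libraries left out 29 of the 35 were called. DESeq2 called all 35, but it called 3085 genes in all and 1707 of the 1709 called here. A fit of the 6 libraries of QxG and Q alone called 3 of the 35, again TIV1, CCD1A and LIP8, and 287 of the 1709. AADC1B was not tested in it. The rest had adjusted p = 0.0541 to 0.156, the 6 called heat shock genes and the 4 called jasmonate genes among them. Lists with members called in 1 direction alone had 0 called in the other by DESeq2 too, except 1 ascorbate gene called higher. Names rest on the identifiers in these lists. Only 147 of the 222 names matched exactly 1 RefSeq gene. The chromosome of the others, LIP8, RIN, AGPS1, GAD2 and JAZ1 among them, was not checked. E8 and HSP90 are less sure, because RefSeq places genes of these names on other chromosomes.

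**Figure D2:**
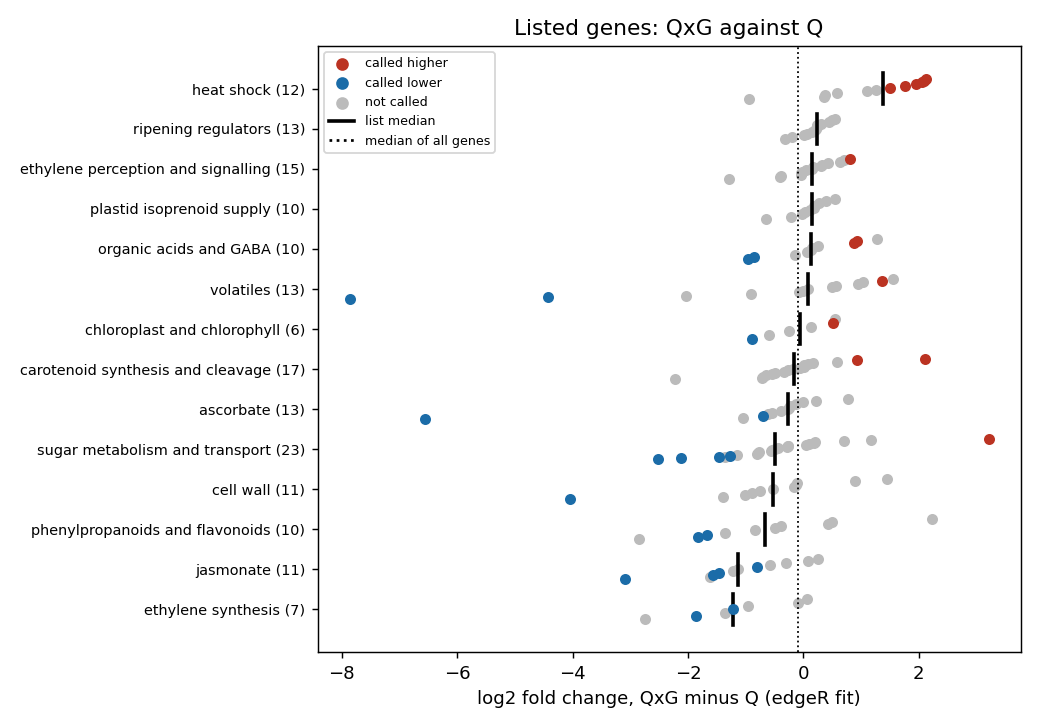
Log2 fold change, QxG minus Q, of every measured gene in the lists with at least 5 measured genes (number in brackets); red and blue points were called higher and lower, grey points were not called, black bars are list medians and the dotted line is the median of all genes (-0.09). Heat shock has the highest median (1.38) and ethylene synthesis the lowest (-1.22); AADC1B, at -7.86, has 0 counts in each QxG library, so its fitted value is not a bound.

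Sugar genes changed in opposite directions. The vacuolar invertase rose strongly, and a sucrose transporter, a hexokinase and both called starch genes fell. TIV1, which encodes the invertase of the vacuole, stood at 1409, 877 and 1834 CPM in the 3 Q libraries and at 10963, 16656 and 10515 CPM in the 3 QxG libraries. Every QxG library was far above every Q library. The rise was 9.26-fold (log2 fold change 3.21, SE 0.390, adjusted p = 0.00224), and adjusted p was 0.000864 to 0.0164 with single libraries left out. Its level was 13652 ± 1551 CPM in G and 9573 ± 3674 CPM in GxQ (SD, n = 3 each, as for all later values with ±), and QxG against G showed a log2 fold change of -0.10 (adjusted p = 0.884). QxG thus differed from Q and not detectably from G. The comparison with G, which called 8.5% of all genes, uses the same QxG libraries, so the 2 sets of values are not independent.

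SUT4, which carries sucrose across membranes, stood at 20.9, 23.0 and 12.5 CPM in Q and 8.32, 6.35 and 8.60 CPM in QxG (log2 fold change -1.28, SE 0.267, adjusted p = 0.0168). HXK1, a kinase that phosphorylates glucose, stood at 20.0, 21.4 and 17.6 CPM in Q and 7.67, 3.75 and 10.0 CPM in QxG (log2 fold change -1.46, adjusted p = 0.0203). Both were lower in every QxG library, and QxG lay near G, with log2 fold changes against G of -0.30 for SUT4 and 0.01 for HXK1 (adjusted p = 0.516 and 0.985). ADP-glucose pyrophosphorylase makes the sugar nucleotide from which starch is built. A large subunit gene, AGPL1, stood at 8.38, 6.72 and 2.42 CPM in Q and 0.948, 0.786 and 1.30 CPM in QxG, a fall of 2.52 on the log2 scale (adjusted p = 0.0286). The small subunit gene AGPS1 stood at 19.7, 19.3 and 14.2 CPM in Q and 1.85, 4.29 and 6.11 CPM in QxG (log2 fold change -2.12, SE 0.551, adjusted p = 0.0344). Neither subunit overlapped between the genotypes, and the third Q library was the lowest of its genotype for both and for SUT4. LIN5, an invertase of the cell wall, was also lower in each QxG library, at 34.8 to 48.5 CPM against 66.8 to 77.4 CPM, but was not called (log2 fold change -0.80, adjusted p = 0.120).

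Of 23 measured genes of sugar metabolism and transport 1 rose and 4 fell, and the list median was -0.49 against -0.09 for all genes. Further genes without overlap missed the threshold; those named next were chosen after their values were seen. SPSA1, a sucrose phosphate synthase, and the sucrose transporter SUT1 lay higher in every QxG library (log2 fold changes 0.70 and 1.18, adjusted p = 0.0530 and 0.0791), and the sucrose synthase SUS1 and the invertase inhibitor INVINH1 lower (-1.16 and -0.78, adjusted p = 0.0715 and 0.0769). Without the first or the second Q library none of the 4 falls was called (adjusted p = 0.0769 to 0.123). That of SUT4 was not called without the second QxG library (0.0514), nor were those of AGPL1 and AGPS1 without any 1 of the QxG libraries (0.0517 to 0.0809); with both doubtful libraries left out AGPS1 alone of the 5 was not called (0.0529).

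Genes of GABA metabolism and an aconitase moved in both directions. GABA is made from glutamate by glutamate decarboxylases and returned to the citrate cycle through succinic semialdehyde. GAD1, a decarboxylase, rose from 341, 339 and 501 CPM in Q to 669, 737 and 768 CPM in QxG (log2 fold change 0.88, SE 0.193, adjusted p = 0.0196). SSADH, the dehydrogenase of the last step, rose from 52.9, 56.7 and 72.9 CPM to 139, 91.7 and 118 CPM (log2 fold change 0.94, adjusted p = 0.0227). For both, all QxG libraries were above all Q libraries. A second decarboxylase gene, GAD2, went the other way, from 44.9, 39.6 and 26.2 CPM in Q to 15.7, 13.8 and 27.3 CPM in QxG (log2 fold change -0.96, adjusted p = 0.0448), and the third QxG library lay above the third Q library. Aconitase Solyc12g005860, of the enzyme family that converts citrate to isocitrate, fell from 136, 129 and 139.7 CPM to 96.9, 53.5 and 72.3 CPM (log2 fold change -0.86, adjusted p = 0.0274). It stood at 46.0 ± 7.34 CPM in G and 748 ± 77.5 CPM in GxQ.

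The 10 measured genes of this list held 2 rises and 2 falls, with a median of 0.14. GAD3, the third decarboxylase, and GABA-TP1 and GABA-TP3, the transaminases that act between GAD and SSADH, showed log2 fold changes of 0.26, 0.07 and 0.14 and were not called (adjusted p = 0.582, 0.928 and 0.792); these genes were added to complete the pathway after their values were seen. Without the first or the second Q library none of the 4 calls held (adjusted p = 0.0840 to 0.190). GAD1 and SSADH were not called without the third QxG library (0.0569 and 0.0542). Aconitase Solyc12g005860 was not called without the second or the third QxG library (0.0719 and 0.0766), nor GAD2 without the first or second (0.105 and 0.129). All 4 were called with both doubtful libraries left out (0.00327 to 0.0359).

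**Figure D3:**
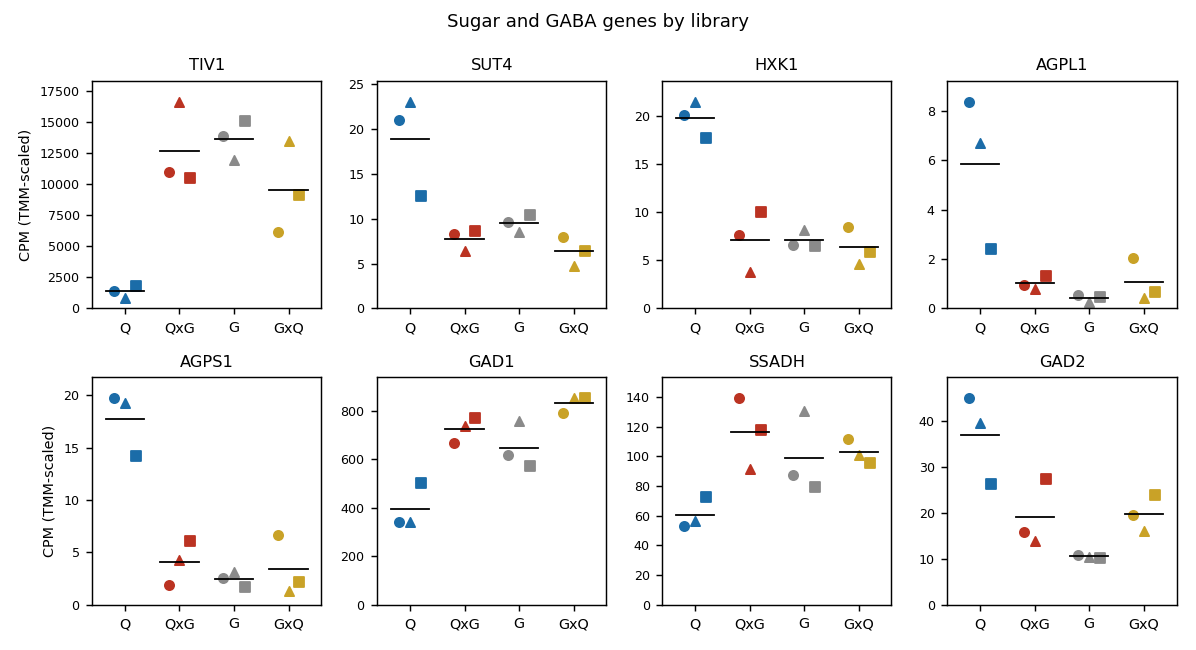
Levels of 8 genes of sugar, starch and GABA metabolism in every library, in TMM-scaled CPM on linear axes from 0; circles, triangles and squares are the first, the second and the third library of each genotype and lines are means. TIV1 in QxG (10515 to 16656 CPM) overlaps the range of G, whereas SUT4, HXK1, AGPL1, AGPS1 and GAD2 are lower in QxG than in Q on average.

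The carotenoid cleavage genes CCD1A and CCD1B rose in the hybrid, while the other 15 genes of carotenoid synthesis and cleavage were not called. CCD1 enzymes cut carotenoids into apocarotenoids, among them the aroma compound beta-ionone. CCD1A stood at 8.14, 7.49 and 6.70 CPM in Q and 35.8, 29.4 and 31.1 CPM in QxG, a 4.30-fold rise (log2 fold change 2.11, SE 0.167, adjusted p = 0.000103). The hybrid level lay between the parents, since G held 75.1 ± 15.3 CPM (QxG against G, log2 fold change -1.22, adjusted p = 0.00332), and GxQ held 31.6 ± 1.30 CPM. The adjacent gene CCD1B stood at 285, 314 and 429 CPM in Q and 589.7, 693 and 681 CPM in QxG (log2 fold change 0.93, adjusted p = 0.0146), with no overlap. It was at 715 ± 93.0 CPM in G and 403 ± 28.0 CPM in GxQ. Reads may be shared between these copies, which leaves the division of counts uncertain. CCD1A held with single libraries left out (adjusted p = 0.000225 to 0.00132), whereas CCD1B was not called without the first or the second Q library (0.0667 and 0.0672). These were the 2 called members of 17 genes, whose median was -0.17; with both doubtful libraries left out 4 were higher and 1 lower. NCED1 and NCED2, cleavage genes on the way to abscisic acid chosen after their values were seen, were not called (log2 fold change -0.72 for NCED1, with adjusted p = 0.200, and -2.23 for NCED2, with adjusted p = 0.122). PSY1, which makes phytoene in ripening fruit, stood at 5140.5, 5195 and 9515 CPM in Q and 4831, 8597 and 6683 CPM in QxG (log2 fold change 0.02, adjusted p = 0.976), with overlapping groups. None of 10 genes of plastid isoprenoid supply was called by edgeR (1 at an unadjusted p under 0.05, and 1 higher by DESeq2), but with both doubtful libraries left out 5 were higher.

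Ripening regulators were not called, and 2 genes of ethylene synthesis fell. RIN, the MADS-box factor needed for ripening, stood at 684, 643 and 885 CPM in Q and 795, 849.7 and 943 CPM in QxG (log2 fold change 0.23, adjusted p = 0.524). NOR, a NAC factor with a like role, stood at 184, 194 and 392 CPM in Q and 285, 253 and 236 CPM in QxG (log2 fold change 0.01, adjusted p = 0.989). In both genes the third Q library was the highest of its genotype, and the groups overlapped. By edgeR 0 of 13 ripening regulators were called (1 at an unadjusted p under 0.05, and 1 higher by DESeq2), and 2 were higher with both doubtful libraries left out. Among these was E8, an ethylene-responsive ripening gene, with log2 fold change 0.20 and adjusted p = 0.730 over all libraries and 0.0499 without the doubtful libraries.

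Ethylene is made from a precursor formed by ACC synthases (ACS) and oxidised by ACC oxidases (ACO). ACS4, of a synthase active in ripening, fell from 255, 346 and 530.2 CPM in Q to 143, 99.3 and 68.6 CPM in QxG (log2 fold change -1.86, SE 0.502, adjusted p = 0.0392). ACO4 fell from 108, 119 and 113 CPM to 34.1, 45.5 and 66.0 CPM (log2 fold change -1.22, adjusted p = 0.0398). Neither overlapped between the genotypes. ACS2 and ACO1, the other main ripening genes of these families, were variable: ACS2 stood at 616, 669 and 2098 CPM in Q and 893, 274 and 573 CPM in QxG (log2 fold change -0.96, adjusted p = 0.287), and ACO1 at 963, 854 and 3217 CPM in Q and 2007, 806 and 2422 CPM in QxG (log2 fold change 0.06, adjusted p = 0.961). For these the third Q library held the highest level of all 6. So 2 of 7 measured genes of ethylene synthesis fell and 0 rose, with a list median of -1.22. Of 15 genes of ethylene perception and signalling 1 rose, the receptor gene ETR2, from 38.6, 58.9 and 37.9 CPM in Q to 76.8, 60.3 and 99.2 CPM (log2 fold change 0.80, adjusted p = 0.0301). ETR2 was also higher in QxG than in G, where it stood at 30.0 ± 1.74 CPM (log2 fold change 1.39, adjusted p = 0.00461).

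The ethylene calls were sensitive to single libraries. Without the first Q library ACS4, ACO4 and ETR2 were not called (adjusted p = 0.0772, 0.113 and 0.106), and ACS4 and ACO4 were not called either with both doubtful libraries left out (0.0572 and 0.105), where ETR2 was (0.0480). Without the second Q library ACS4 and ACO4 had 0.0964 and 0.126. Each call also ended without further single libraries: for ACS4 the third Q and the second and the third QxG library (0.0730, 0.0965 and 0.117), for ACO4 the third Q and the first and the second QxG library (0.0516, 0.0995 and 0.103) and for ETR2 the third Q and the third QxG library (0.0501 and 0.0815).

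Cell wall genes held 1 fall among 11 measured genes. Solyc05g005560, for the beta subunit that binds polygalacturonase in the wall, stood at 24.5, 74.8 and 1.54 CPM in Q and 2.84, 1.15 and 2.02 CPM in QxG. The third Q library lay within the QxG range, so the groups overlapped (log2 fold change -4.05, SE 1.11, adjusted p = 0.0416), and the call ended without any library but the third Q library (0.0733 to 0.198). PG2A, the polygalacturonase of ripe fruit, stood at 1565, 1918 and 7549 CPM in Q and 2235, 2363 and 1319.5 CPM in QxG (log2 fold change -0.90, adjusted p = 0.266). Its difference rests on the third Q library, without which the log2 fold change was 0.20. PL, a pectate lyase that softens the fruit, stood at 2567, 2648 and 5212 CPM in Q and 2382, 1859 and 1933 CPM in QxG. Every QxG library was below every Q library, but the gene was not called (log2 fold change -0.76, adjusted p = 0.114; DESeq2 adjusted p = 0.0463). The list median moved from -0.53 to 0.20 without the third Q library.

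Among aroma genes a lipase of fatty acid volatiles rose and a pair of decarboxylases of phenylalanine volatiles fell. LIP8, a lipase that frees fatty acids for volatile formation, stood at 69.5, 69.8 and 71.8 CPM in Q and 137, 194 and 213 CPM in QxG. All 3 hybrid fruits were above the narrow range of Q (2.58-fold, log2 fold change 1.36, SE 0.166, adjusted p = 0.00224; 0.000518 to 0.0168 with single libraries left out). G stood at 144 ± 4.94 CPM and GxQ at 173 ± 18.6 CPM, and QxG against G showed a log2 fold change of 0.33 (adjusted p = 0.224). TomLoxC, the lipoxygenase of volatile synthesis, stood at 229, 224 and 667 CPM in Q and 465, 513 and 598 CPM in QxG. It was not called (log2 fold change 0.49, adjusted p = 0.427), but was without the third Q library (0.0118), the 1 Q fruit as high as the hybrid. LOXB, another lipoxygenase, chosen after its values were seen, stood at 4698, 4406 and 21056 CPM in Q and 25400.0, 36352 and 26830.1 CPM in QxG (log2 fold change 1.55, adjusted p = 0.102). Its level in Q was also highest in the third library, but below every hybrid fruit.

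AADC1A, a decarboxylase at the start of the phenylalanine-derived volatiles, stood at 9.88, 5.01 and 0.824 CPM in Q and 0, 0.121 and 0.652 CPM in QxG (log2 fold change -4.42, SE 1.12, adjusted p = 0.0323). Its relative AADC1B had 2.21, 1.91 and 0.165 CPM in Q and 0 counts in all 3 QxG libraries, at least 15.9-fold lower against 3 counts over the second and the third of them (adjusted p = 0.0269). The third Q library was close to the hybrid for both, and GxQ held 19.1 ± 12.3 CPM of AADC1A. These close copies may share reads. Of 13 volatile genes 1 rose and 2 fell, with a median of 0.08. The number higher was 4 without the third Q library, 5 with both doubtful libraries left out and 3 by DESeq2. Without the first or second Q library, or without the first or second QxG library, AADC1A and AADC1B were not called (0.0539 to 0.121), nor AADC1B without the third QxG library (0.0623), but both were with both doubtful libraries left out (0.0159 and 0.0122).

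Of the 11 measured genes of jasmonate synthesis and response 4 were called lower in the hybrid. Jasmonate is a hormone of wounding and defence made from linolenic acid by a lipoxygenase, a synthase and a cyclase, and JAZ proteins hold its target genes in check and are themselves induced by it. LOXD, the lipoxygenase of this route, stood at 55.2, 35.4 and 5.11 CPM in Q and 1.94, 2.66 and 6.76 CPM in QxG (log2 fold change -3.09, SE 0.787, adjusted p = 0.0323). The third Q library lay within the hybrid range, so the groups overlapped. AOC, the cyclase, fell from 23.4, 18.6 and 19.5 CPM to 9.35, 12.5 and 13.4 CPM (log2 fold change -0.81, adjusted p = 0.0301). The repressor genes JAZ1 and JAZ3 fell as well, JAZ1 from 39.4, 27.8 and 17.6 CPM to 3.45, 9.68 and 15.6 CPM and JAZ3 from 20.4, 15.2 and 8.02 CPM to 4.18, 6.23 and 5.40 CPM. Neither overlapped, and their log2 fold changes were -1.57 and -1.47 (adjusted p = 0.0426 and 0.0342). In GxQ the levels of LOXD, JAZ1 and JAZ3 were 194 ± 87.2, 37.8 ± 7.55 and 30.8 ± 15.2 CPM. In G they were 10.3 ± 6.10, 8.80 ± 1.00 and 9.97 ± 0.674 CPM, and none of the 3 was called between QxG and G (adjusted p = 0.246, 0.897 and 0.147).

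Of 11 jasmonate genes 4 fell and 0 rose, and the list median was -1.13. Positive log2 fold changes were found in 2 of the 11, named after their values were seen. These were AOS1 (0.09, adjusted p = 0.874) and COI1 (0.26, adjusted p = 0.231), and neither was called. COI1 was higher in each QxG library than in any Q library. OPR3, a reductase of jasmonate synthesis in the peroxisome, and MYC2, the main transcription factor of the pathway, had lower values in each QxG library than in any Q library but were not called (log2 fold changes -1.22 and -0.58, adjusted p = 0.0814 and 0.134); both were chosen after their values were seen. The 4 calls ended without the first or second Q library and without the first or second QxG library (adjusted p = 0.0553 to 0.179), and for AOC and JAZ3 also without the third QxG library (0.0545 and 0.0856). With both doubtful libraries left out LOXD, JAZ1 and JAZ3 were called (0.0100, 0.00992 and 0.0216) and AOC was not (0.0590).

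**Figure D4:**
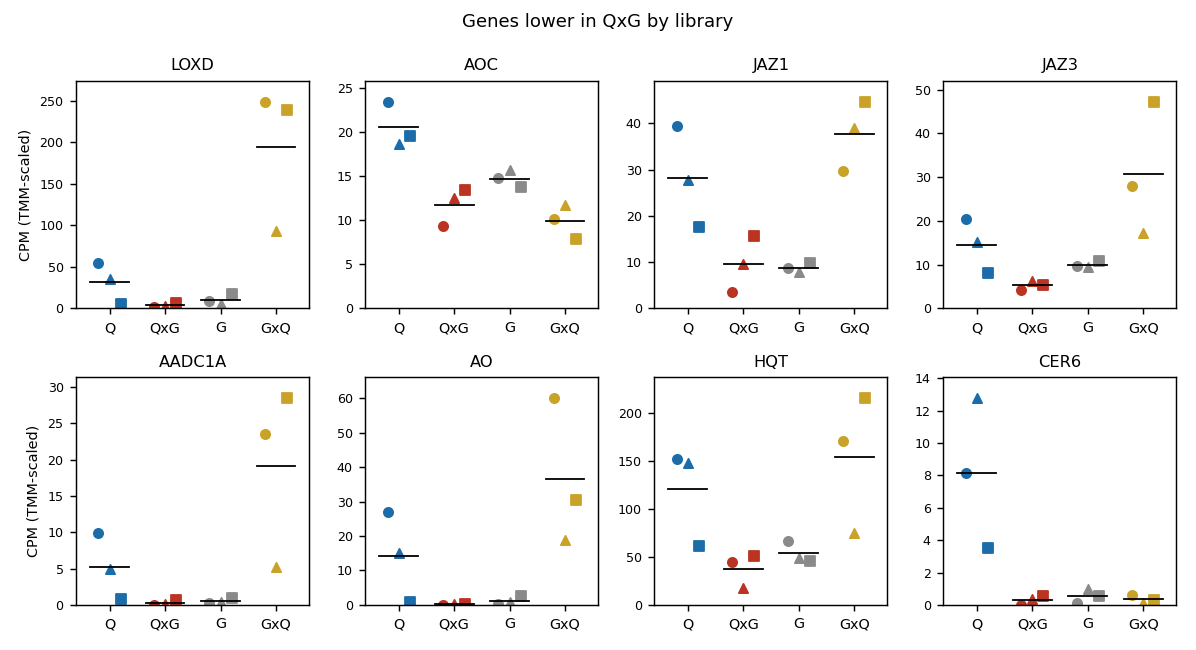
Levels of 8 genes called lower in QxG than in Q in every library, in TMM-scaled CPM on linear axes from 0; circles, triangles and squares are the first, the second and the third library of each genotype and lines are means. The third Q library (blue square) is the lowest of its genotype in all but AOC, and GxQ has the highest mean for LOXD, JAZ1, JAZ3, AADC1A, AO and HQT.

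Single genes of phenylpropanoid and ascorbate metabolism fell too. HQT, which forms chlorogenic acid, stood at 152, 148 and 61.3 CPM in Q and 44.9, 17.7 and 50.8 CPM in QxG (log2 fold change -1.67, adjusted p = 0.0438). CHI, the chalcone isomerase of flavonoid synthesis, stood at 3.08, 2.20 and 4.18 CPM in Q and 0.474, 0.847 and 1.36 CPM in QxG (log2 fold change -1.82, adjusted p = 0.0472). Both were without overlap, and they were the 2 called of 10 genes, with a median of -0.67. AO, ascorbate oxidase, which oxidises vitamin C in the cell wall space, showed the steepest fall of a listed gene with over 5 CPM on average over the 6 libraries. It stood at 26.8, 14.9 and 0.824 CPM in Q and 0, 0.181 and 0.297 CPM in QxG (log2 fold change -6.56, SE 1.33, adjusted p = 0.0150), and at 36.5 ± 21.2 CPM in GxQ and 1.22 ± 1.19 CPM in G. Even the third Q library, low as it was, lay above the hybrid fruits. The 0 in the first QxG library is not read as absence, and 0.181 CPM is 3 counts in the second. The size of the AO fall is therefore uncertain. GGP1, for the phosphorylase that controls flux into ascorbate, fell from 580.3, 681 and 472 CPM to 404, 324 and 338 CPM (log2 fold change -0.70, SE 0.176, adjusted p = 0.0310). GGP1 was also lower in QxG than in G, where it stood at 679 ± 55.8 CPM (log2 fold change -0.94, adjusted p = 0.0116), and GxQ held 324 ± 29.2 CPM. Of 13 ascorbate genes these 2 fell and 0 rose, with a median of -0.27.

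The HQT call ended without any library but the third Q library (0.0648 to 0.151), and the CHI call without any 1 of the 6 (0.0556 to 0.144). AO was not called without the first Q library (0.0553), nor GGP1 without the first or second Q library (0.108 and 0.149) or the second or the third QxG library (0.0931 and 0.0910). With both doubtful libraries left out HQT, AO and GGP1 were called (0.0221, 0.00363 and 0.00821) and CHI was not (0.115).

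Heat shock genes formed the list with the most rises, 6 of 12 higher and 0 lower, with a median log2 fold change of 1.38 against -0.09 for all genes. These proteins keep other proteins from clumping in heat and are also made during normal ripening in tomato. HSP21, a small heat shock gene whose protein works in plastids, stood at 529, 637 and 1049.5 CPM in Q and 1731, 3444 and 4494 CPM in QxG (4.36-fold, log2 fold change 2.13, SE 0.448, adjusted p = 0.0175). HSP90, a chaperone gene, stood at 810.2, 1034 and 2279.5 CPM in Q and 4470.0, 3049 and 6458 CPM in QxG (log2 fold change 1.76, SE 0.431, adjusted p = 0.0286). In both, the third Q library was the highest of its genotype and still below every hybrid fruit. Both parents and the reciprocal hybrid had lower means than QxG: G held 1052 ± 197 CPM of HSP21 and 1733 ± 455 CPM of HSP90, and GxQ 699 ± 330.3 and 1419 ± 535 CPM. Against G, QxG showed log2 fold changes of 1.62 for HSP21 (adjusted p = 0.0431) and 1.43 for HSP90 (adjusted p = 0.0601).

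The other 4 rises were small heat shock genes whose identifiers lie close together on chromosome 6 and which may share reads. Solyc06g076560 stood at 1268, 1439 and 2586 CPM in Q and 4085, 8357 and 10193 CPM in QxG (log2 fold change 2.10, adjusted p = 0.0177). Solyc06g076520 stood at 1344, 1393 and 2940.3 CPM in Q and 4132, 8158 and 9749 CPM in QxG (log2 fold change 1.96, adjusted p = 0.0197). In both the first QxG library was the lowest of the hybrid and above all Q libraries, and GxQ lay between, at 4309 ± 1358 and 4263 ± 1017 CPM. Without overlap, Solyc06g076540 rose as well (log2 fold change 2.06, adjusted p = 0.0395), as did Solyc06g076570 (1.50, adjusted p = 0.0354). HSP101, a chaperone that untangles clumped proteins, stood at 1729, 1984 and 3834 CPM in Q and 4441, 2591 and 4213 CPM in QxG and was not called (log2 fold change 0.58, adjusted p = 0.270; 0.0261 without the third Q library). HSFA2, a heat stress factor that was chosen after its values were seen, was above Q in every hybrid fruit, at 257, 288 and 422 CPM against 101, 84.4 and 218 CPM, and was not called (log2 fold change 1.26, adjusted p = 0.0668). HSFA3, another such factor chosen in the same way, was the only listed heat shock gene with a negative log2 fold change (-0.94, adjusted p = 0.180). It stood at 22.8, 16.1 and 6.37 CPM in Q and 6.81, 8.77 and 8.19 CPM in QxG.

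Without the first Q, the second Q or the third QxG library none of the 6 heat shock rises was called (adjusted p = 0.0783 to 0.142, 0.0740 to 0.138 and 0.0523 to 0.103), and Solyc06g076540 and Solyc06g076570 were not without the second QxG library (0.104 and 0.0729). With both doubtful libraries left out, a setting that removes the Q library closest to QxG, all 6 were called (0.00226 to 0.00661). In that setting 9 of the 12 genes were higher and the list median was 2.19. Without the third Q library alone 10 were higher and 1 lower.

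**Figure D5:**
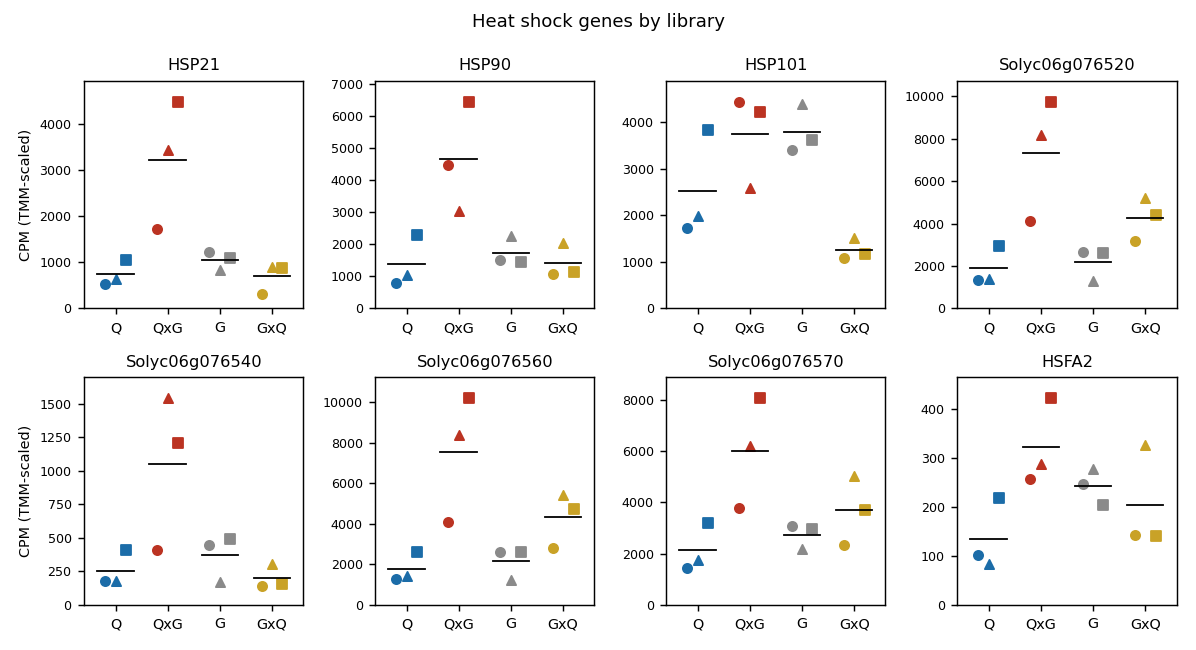
Levels of 8 heat shock genes in every library, in TMM-scaled CPM on linear axes from 0; circles, triangles and squares are the first, the second and the third library of each genotype and lines are means. QxG has the highest mean in every panel but HSP101, where G is about level with it, and the third Q library (blue square) is the highest of the Q libraries in all 8.

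Plastid and surface genes gave single calls. DDB1, whose product restrains plastid development, rose from 146, 168 and 185 CPM to 257, 221 and 235 CPM (log2 fold change 0.51, adjusted p = 0.0419). APRR2L, tied to plastid number and pigment in green fruit, fell from 53.1, 40.7 and 52.2 CPM to 25.3, 24.9 and 28.7 CPM (log2 fold change -0.89, adjusted p = 0.0226), and stood at 17.8 ± 4.99 CPM in G. They were without overlap and were the 2 called of 6 chloroplast and chlorophyll genes. Each call ended without any 1 library but the third Q library (adjusted p = 0.0591 to 0.136 and 0.0515 to 0.107), and with both doubtful libraries left out DDB1 was called (0.0242) and APRR2L was not (0.0618). CER6, which elongates fatty acids for the wax of the fruit surface, stood at 8.18, 12.8 and 3.52 CPM in Q and 0, 0.363 and 0.534 CPM in QxG (log2 fold change -4.81, SE 1.02, adjusted p = 0.0176). It was at 0.552 ± 0.456 CPM in G and 0.335 ± 0.256 CPM in GxQ, so Q was the high genotype. The call ended without the first or the second Q library (0.0622 and 0.0751) and held with both doubtful libraries left out (0.00726). The other measured marker of epidermis and cuticle, CD2, showed a log2 fold change of -0.31 (adjusted p = 0.631), and the part of skin in the samples was not tested. By edgeR no gene was called among 3 glycoalkaloid, 3 defence, 2 ASR and 1 fruit shape genes measured; at an unadjusted p under 0.05 and by DESeq2 the count was 0 in each as well.

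Among called genes in no list that averaged at least 5 CPM over the 6 libraries and did not overlap, the 2 largest rises and the 2 largest falls concern transcripts near absent on 1 side, given by identifier because no name is attached to them in the sources used here. Solyc02g065270 stood at 0.277, 0.692 and 1.87 CPM in Q and 81.7, 113 and 116 CPM in QxG, a 115-fold rise (log2 fold change 6.85, SE 0.481, adjusted p = 4.25e-05), with 152 ± 30.6 CPM in G. Solyc08g016770 stood at 0.119, 0 and 0.385 CPM in Q and 26.8, 25.2 and 22.7 CPM in QxG (log2 fold change 7.30, SE 0.691, adjusted p = 0.000503). Its hybrid level was above that of G, which held 6.42 ± 2.20 CPM (log2 fold change 1.96, adjusted p = 0.0314). Both rises were called with each single library left out. Solyc11g020230 fell from 16.1, 19.4 and 1.32 CPM to 0, 0.0605 and 0.237 CPM (log2 fold change -7.01, adjusted p = 0.0167) and Solyc06g075690 from 21.3, 16.6 and 0.769 CPM to 0, 0.242 and 0.178 CPM (log2 fold change -6.62, adjusted p = 0.0247). Both falls had their lowest Q level in the third library and their highest level in GxQ, at 66.3 ± 37.5 and 127 ± 71.3 CPM. Without the first or second Q library neither was called (0.0536 to 0.0834), nor Solyc11g020230 without the second QxG library (0.0505) or Solyc06g075690 without any 1 QxG library (0.0617 to 0.0698).

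Transcripts with 0 counts on 1 side were few. Among genes that averaged 1 CPM or more in QxG, 5 had 0 counts in all 3 Q libraries, and all 5 had counts in each G library and each GxQ library. Solyc05g006370 stood at 5.78, 11.0 and 9.49 CPM in QxG, or at least 199-fold above the limit for Q, which is 3 counts over its 3 libraries (0.0441 CPM), and at 18.2 ± 1.80 CPM in G. Solyc05g006140 stood at 9.61, 1.15 and 2.19 CPM (at least 98.0-fold higher), and Solyc06g071475 at 3.62, 5.93 and 2.31 CPM (at least 89.7-fold higher). Each was called, also with each single library left out (highest adjusted p = 0.0408). In the other direction 15 genes with at least 1 CPM on average in Q had 0 counts in the second and the third QxG library, and 13 of them had 0 in the first as well. The most abundant in Q were Solyc09g005260 at 4.35, 6.96 and 0.220 CPM, Solyc08g082110 at 3.48, 3.38 and 0.605 CPM and Solyc09g075910 at 1.38, 4.72 and 0 CPM. Their level was again lowest in the third Q library. Solyc08g082110 was called lower (at least 27.7-fold, adjusted p = 0.0184), though not without the first or second Q library (0.0624 and 0.0584), and Solyc09g005260 and Solyc09g075910 were not (adjusted p = 0.0933 and 0.0618). Of the 15 genes 5 had counts in all G libraries and 12 in all GxQ libraries. Without the third Q library the 15 became 23, and without the first Q library 8. Limits from 0 counts cover counting error only.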

How the data were processed

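Per the labels' protocols, total RNA of frozen mesocarp powder from 3 red ripe fruits per genotype was sequenced. The authors deposited 1 table of read counts by gene and library, 12 libraries in all. It is named as normalized, but its values are whole and its totals differ, so they were used as raw counts. The submitters' processing notes list FastQC, fastp 0.21, HISAT2 2.1.0, featureCounts of Subread, edgeR and R 4.0.3; the sources used here give no genome build, annotation, strand or multi-mapping setting, so copies and overlapping genes may share reads and wild alleles may map less well. All 17887 genes exceed 0.5 CPM in at least 3 libraries. Sequences and coordinates were not used here.

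Counts were fitted with edgeR 4.0.16 (R 4.3.3) as 1 mean per genotype over all 12 libraries, with TMM factors of 0.884 to 1.24. Common BCV was 0.309 with 8 residual degrees of freedom, and filterByExpr removed 0 genes. The quasi-likelihood F test of QxG minus Q was adjusted by Benjamini-Hochberg over all 17887 genes; SE is the absolute log2 fold change over the square root of F. CPM are TMM-scaled, and 0.5 was added to CPM before log2 for correlations. No libraries were identical (chi-square per gene 15.3 to 139 within genotypes). The procedure was also run on simulated counts. These held no outlying library, so they do not bear on the doubtful libraries. DESeq2 1.42.0, RLE factors, other filters, left-out libraries, a fit of the 6 libraries and a replicate block were alternatives.

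The members and the gene lists were chosen with earlier results of these data known. Genes named are up to 4 called members per list and direction with the smallest adjusted p, the 10 listed rises and 10 listed falls that are largest at 5 CPM or more without overlap, 18 preset ripening, sugar and heat genes, 2 unlisted genes per direction, and up to 3 transcripts at 0 per side; others are marked. None of the identifiers is in RefSeq's gene table (41476 genes). A gene is not reported here and enters no list count. Of 147 listed names with exactly 1 RefSeq gene, 142 lie on the identifier's chromosome, and 876 of 876 pairs on 1 chromosome keep their order.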

Additional observations from a re-analysis of the deposited data

How the results depend on the processing

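The counts of genes called in all, higher and lower were 3085, 1295 and 1790 by DESeq2, 297, 129 and 168 with only the 6 libraries in the fit, and 3739, 1756 and 1983 without the first QxG and the third Q library together. With single libraries left out they ranged from 310 to 2606, 119 to 1101 and 191 to 1505. RLE factors gave 1709, 722 and 987, no filter the same counts as reported, over 1 CPM in at least 3 of the 6 libraries 1611, 633 and 978, and leaving out genes with 0 in the first QxG library 1641, 653 and 988. Same-numbered Q and QxG libraries deviated from their group means with correlations of 0.106, -0.127 and 0.132. Libraries 1 and 3, but not 2, correlated best with their own number. Whether same-numbered libraries share more than a label was not tested. The replicate block gave 1500, 617 and 883, and 1356 of the 1709 calls were among its calls. Log2 fold changes changed sign with single libraries left out for PSY1 (-0.19 to 0.40), NOR (-0.15 to 0.47), ACO1 (-0.24 to 0.96) and PG2A (-1.23 to 0.20); NOR was 0.00 without genes at 0 in the first QxG library, and PG2A 0.13 without the first QxG and the third Q library. None of these was called. Without those 2 libraries the list medians were 0.63 for plastid isoprenoid supply, 0.21 for cell wall, 0.64 for volatiles and 2.19 for heat shock. With single libraries left out the medians ranged from -0.83 to 0.20 for cell wall, -1.57 to -0.40 for phenylpropanoids and -0.41 to -0.25 for ascorbate. With a 5 CPM minimum 1 transcript at 0 in Q was found in QxG. Transcripts at 0 in QxG numbered 8 to 23 with single Q libraries left out, an alternative chosen after seeing the data. The cause of these changes was not tested. Fits with fewer libraries also have fewer degrees of freedom. Among the other values of named genes and alternatives, 558 kept their direction and side of the threshold, 184 lost the call and 11 gained it.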

Other observations

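Called genes were spread over all 12 chromosomes. The share called between QxG and Q ran from 7.71% of 1181 genes on chromosome 11 to 10.8% of 1296 genes on chromosome 7, against 9.55% over all genes, and on each chromosome more genes were lower than higher in QxG.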
